A study of Ostreococcus tauri with 30 samples.

Results

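The comparison described here set 3 libraries of Ostreococcus tauri taken 12 h after the higher of 2 copper additions against 3 control libraries of the same time point, out of 30 libraries in the series. O. tauri is a marine green alga of very small cell size, and all groups were liquid cultures of strain RCC745 in artificial seawater with Keller nutrients, on a cycle of 12 h light and 12 h dark. The other groups were controls at 0, 1 and 4 h, the higher addition at 1 and 4 h, and the lower addition at 1, 4 and 12 h, with 3 libraries each. The sample labels give the added copper as 25 or 250 µM and the treatment protocol gives 0.4 or 2 µM, so the groups are called lower and higher copper and no concentration is attached to an effect. All groups grew in the same medium, and no label states how much copper it held. The labels do not say that replicates came from separate flasks. The p-values weigh a group difference against the spread within groups, estimated over all 30 libraries unless stated, and that spread may be technical.

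Copper is a cofactor of plastocyanin in photosynthetic electron transport and of cytochrome c oxidase in respiration. In excess it drives the formation of reactive oxygen species, binds thiols and displaces other metals from proteins. Plants and algae are known to hold excess copper with glutathione and the phytochelatin peptides made from it, and to use ascorbate, tocopherol and carotenoids against oxidation.

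Gene counts per library were 2549094 to 3549410 in the 3 controls and 3885074 to 5232257 in the 3 copper libraries, so the copper libraries were deeper. Counts were also deposited per KEGG module, a named set of gene families that form a pathway or complex. A read can count for several modules, so module calls are not independent of one another. Across genes, log2 CPM (counts scaled to a common library size, with TMM factors) correlated at 0.972 to 0.977 within the controls. The correlations were 0.970 to 0.978 within higher copper and 0.934 to 0.976 between the groups. Higher copper replicate 1 correlated with the 3 controls at 0.970 to 0.976 and with its own group at 0.970 and 0.978. Module counts were 10.8 to 11.7 times the gene counts in these 6 libraries. The counter is not known here, and why module counts exceed gene counts so far was not tested. The fit took module counts as read counts, and module standard errors and p-values rest on that. In control replicate 3 of 1 h and of 4 h module counts were 6.06 and 20.1 times the gene counts. The labels of those 2 columns are therefore in doubt. Their gene counts were 4775093 and 2622041, and their module counts 28915397 and 52579143. Exchanging the 2 columns in either the gene or the module counts would bring both ratios near those of the 6 libraries. Which of the counts this would be cannot be told. If they are exchanged, either the gene or the module comparisons at 4 h used a control of 1 h. Those 2 columns enter the 12 h test only through steps shared by all libraries, namely the gene filter, the scaling and the estimate of spread. They enter the 1 h and 4 h comparisons directly. Fewer cells of a kind and less RNA per cell cannot be told apart in these bulk samples.

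At 12 h 852 of 7190 tested genes (11.8%) differed between higher copper and control at an adjusted p under 0.05 in edgeR's quasi-likelihood test. Of these 350 rose (4.87% of those tested) and 502 fell (6.98%). Large changes were mostly rises. At least 2-fold, 154 genes rose (2.14%) and 102 fell (1.42%), and at least 4-fold 42 rose and 0 fell. The median called gene rose 1.88-fold or fell 1.70-fold, whereas 61 of the rises and 123 of the falls were under 1.5-fold. Genes that rose had a median level of 24.1 CPM in the control, against 104 CPM for those that fell. In higher copper the medians were 48.4 and 61.7 CPM. The control level is part of the fold change that defined the calls, so the gap in the control follows in part from the choice. With genes ranked by mean level into 4 equal classes, 4.51% rose and 1.67% fell in the lowest class. In the highest class 4.67% rose and 11.8% fell, so the share of rises was nearly level over expression and the share of falls climbed with it. Counts are smaller at low levels, and their part in that pattern was not tested. The 3 copper libraries lay wholly above or below the controls for 342 of the 350 rises and 464 of the 502 falls, where 15.2% of all tested genes lay wholly above and 15.6% wholly below. The genes were called on these same libraries, so their separation is a description and no separate support.

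These counts depended on single libraries. The test called 297 genes without higher copper replicate 3, 329 without control replicate 3 and 403 without higher copper replicate 2. In each of these rises outnumbered falls (159 against 138, 172 against 157 and 224 against 179). With only the 6 libraries fitted 323 rose and 277 fell. The excess of falls over rises thus turned in all 4 settings. It was kept without higher copper replicate 1, where 1087 genes were called (468 rose and 619 fell). It was also kept without control replicate 1 (286 and 354) and without control replicate 2 (294 and 381).

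**Figure D1:**
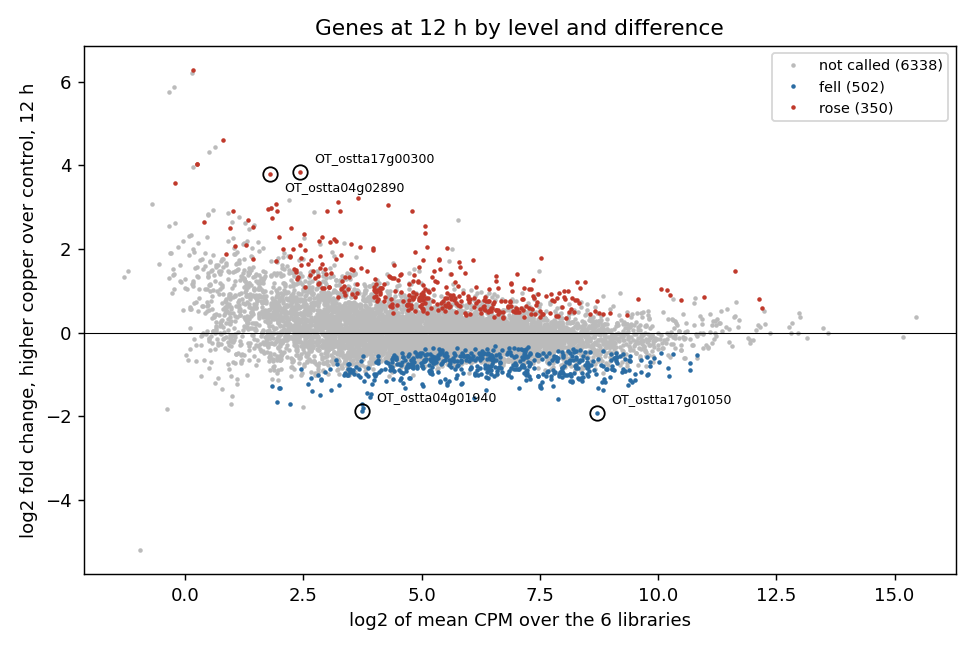
Each point is 1 of 7190 tested genes, with the log2 of its mean CPM over the 6 libraries on the x axis and the log2 fold change of higher copper over control at 12 h on the y axis. Red points rose (350) and blue points fell (502), circles mark the 4 genes named by locus tag, and the blue points gather at the higher levels while the largest called changes are red points at low levels.

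The gene table names genes by locus tag only, so 4 genes are described as the highest and lowest of the rule for named genes. That rule asked for groups apart in CPM, so separation of the groups in these genes was a condition of naming. It also asked for a mean of at least 1 on the log2 scale over the 6 libraries. The 2 rises met this only through the copper libraries, with control means of 0.740 CPM (OT_ostta17g00300) and 0.441 CPM (OT_ostta04g02890). OT_ostta17g00300, on chromosome 17 by its locus tag, stood at 0.310, 1.61 and 0.303 CPM in the controls and 3.80, 11.6 and 14.5 CPM in higher copper. These values rest on 143 reads in the copper libraries against 6 in the controls (scaled ratio 15.9, 95% counting interval 7.13 to 44.1). The fitted log2 change was 3.83 ± 0.63 (SE), adjusted p = 0.00033. It had also risen at 4 h, by 2.77 ± 0.64 (adjusted p = 0.0060). Lower copper at 12 h stood between the groups at 2.94 ± 0.84 CPM (SD, n = 3). Higher against lower copper gave 1.75 ± 0.49 and did not pass (adjusted p = 0.066).

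OT_ostta04g02890, on chromosome 4, stood at 0.619, 0.402 and 0.303 CPM in the controls and 5.70, 7.87 and 5.90 CPM in higher copper. The reads numbered 88 in the copper libraries against 4 in the controls (scaled ratio 14.7, 95% counting interval 5.54 to 55.1). The fitted change was 3.79 ± 0.60 (adjusted p = 0.00024). At 4 h both groups lay between the control and the copper level of 12 h, with 3.86 ± 0.57 CPM in the control and 3.52 ± 0.75 CPM in higher copper (SD, n = 3). The test of the 12 h difference against the 4 h difference gave 3.91 ± 0.76 and did not pass (adjusted p = 0.086). Lower copper at 12 h stood at 1.96 ± 0.82 CPM (SD, n = 3). Higher against lower copper gave 1.70 ± 0.45 and did not pass (adjusted p = 0.052).

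OT_ostta17g01050, on chromosome 17, had the smallest p of all genes. Its controls stood at 582, 683 and 727 CPM and the copper libraries at 182, 159 and 188 CPM. It fell by 1.91 ± 0.17 on the log2 scale (adjusted p = 2.3e-07), to 3.77-fold under the control, and by 0.98 ± 0.17 at 4 h (adjusted p = 0.00036). Lower copper at 12 h stood with the control at 584 ± 51.8 CPM, and higher against lower copper fell by 1.73 ± 0.17 (adjusted p = 1.8e-06). OT_ostta04g01940 stood at 15.8, 19.7 and 27.6 CPM in the controls and 5.16, 3.72 and 7.99 CPM in higher copper. It fell by 1.88 ± 0.31 (adjusted p = 0.00034), and by 1.83 ± 0.31 against lower copper at 12 h (adjusted p = 0.00098). All 4 genes kept their call in every alternative run.

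Of the 236 KEGG modules, 39 were called at 12 h (16.5%), of which 21 rose (8.9%) and 18 fell (7.63%). These counts, and those of the lists that follow, are edgeR calls. DESeq2 called 46 modules, all 39 among them. The groups did not overlap in any of the 39 but the TRAMP complex, while 19.9% of all modules lay wholly above the control and 16.9% wholly below. Here too the calls came from the same libraries, so the separation is a description. Most changes were small. Only 6 of the 39 reached 2-fold and 12 were under 0.5 on the log2 scale. Modules were sorted by name into 20 lists, which follow by role, and 62 modules matched no list. The median over all 236 modules was −0.00 on the log2 scale, with as many modules above the control as below. In all, 8 modules were called without higher copper replicate 3, 14 without control replicate 3 and 24 without higher copper replicate 2. Of the 39, 7 kept their call in every alternative: beta-oxidation acyl-CoA synthesis, the CAM module, the Prp19 complex, photorespiration, Wnt signaling, DNA damage checkpoints and G1/S transition.

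**Figure D2:**
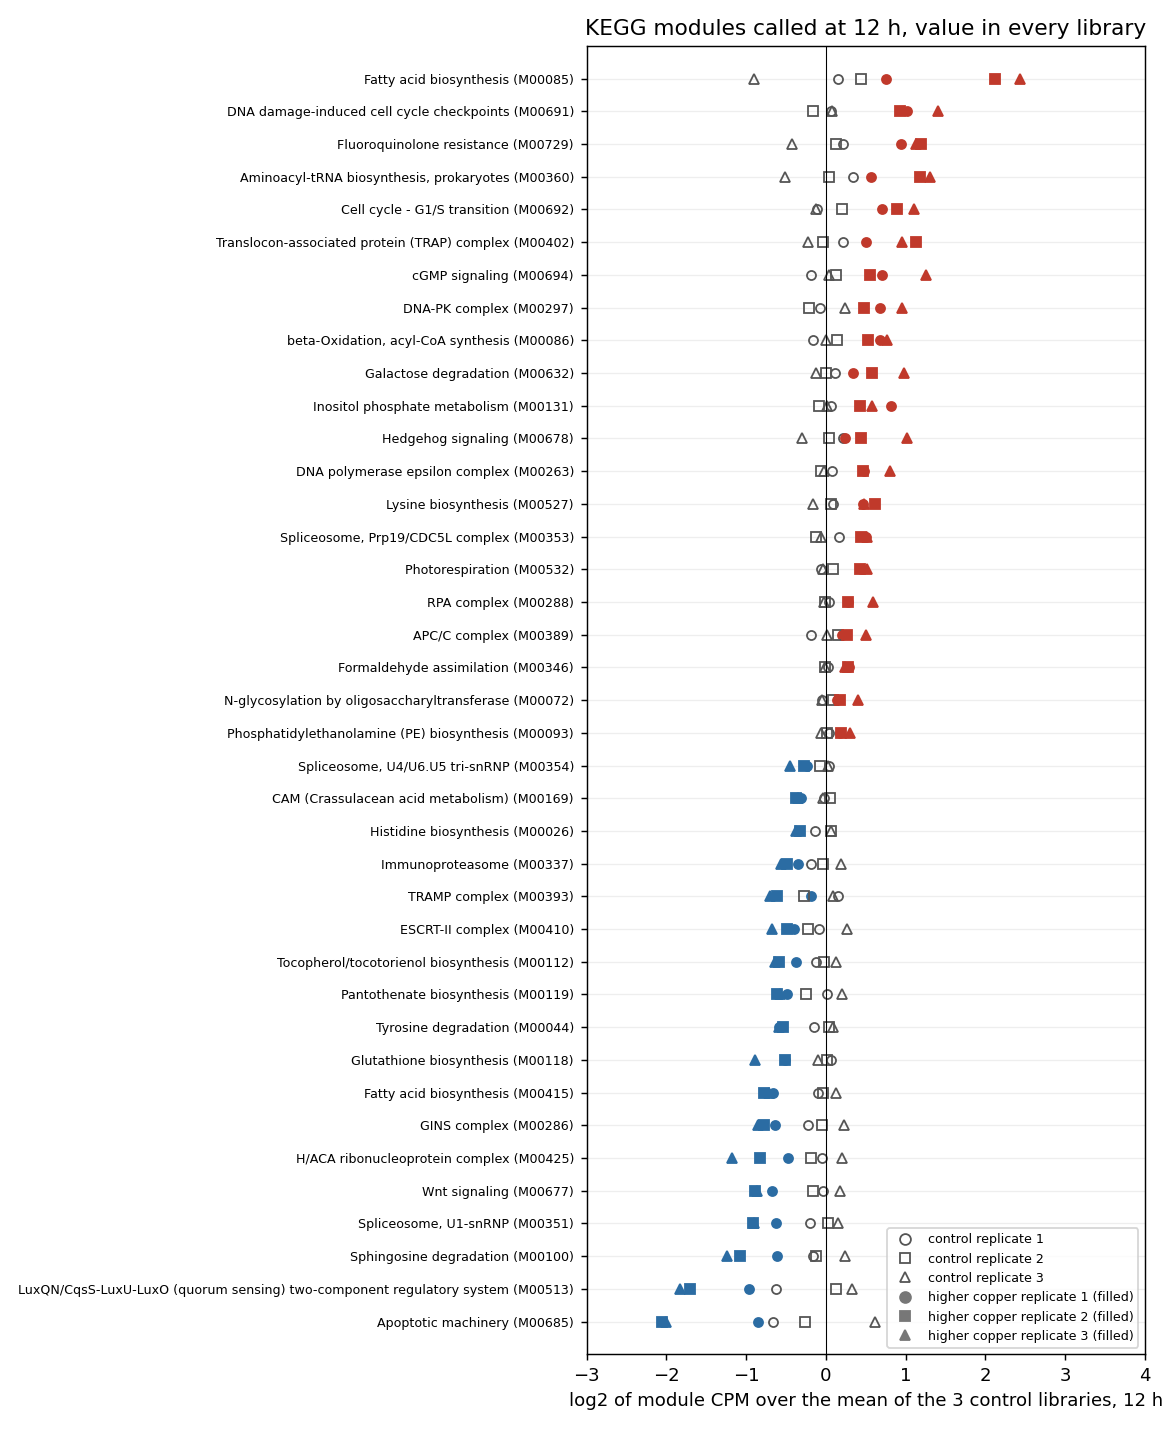
Each line is 1 of the 39 modules called at 12 h and each symbol 1 library, plotted as the log2 of its module CPM over the mean of the 3 controls (x axis). Open symbols are controls and filled symbols higher copper (red rose, blue fell), and filled and open symbols are apart on every line but that of the TRAMP complex, M00393.

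Modules of cell cycle control were among the clearest rises. G1/S transition (M00692), the regulators that commit a cell to copy its DNA, stood at 726, 899 and 719 CPM in the controls and 1273, 1451 and 1687 CPM in higher copper. DNA damage-induced checkpoints (M00691), which hold the cycle while DNA is repaired, stood at 1308, 1123 and 1327 CPM in the controls and 2544, 2397 and 3333 CPM in higher copper. Every copper library was well above every control in both. The log2 changes were 0.91 ± 0.12 and 1.14 ± 0.19 (adjusted p = 1.3e-05 and 0.00044). The anaphase-promoting complex (M00389), a ubiquitin ligase of mitosis, stood at 2039.8 to 2572 CPM in the controls and 2678 to 3303 CPM in higher copper. It rose by 0.33 ± 0.10 (adjusted p = 0.027), a call lost without control replicates 1 or 3 or higher copper replicate 3 and with only the 6 libraries fitted. The other 3 of the 6 modules in this list did not pass. G2/M transition (M00693), the step into mitosis, lay at 3612, 3789 and 4372 CPM against 3455, 3090 and 3772 CPM, with the groups overlapping (log2 −0.19 ± 0.15, adjusted p = 0.41). The ubiquitin ligases SCF-MET30 (M00379) and SCF-FBW7 (M00387) lay at −0.42 and −0.08.

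Of 7 DNA replication modules 2 rose, 1 fell and 4 did not pass. Replication protein A (M00288), which coats single-stranded DNA, stood at 2655, 2564 and 2556 CPM in the controls and 3144, 3144 and 3907 CPM in higher copper, so replicate 3 was the highest by far. DNA polymerase epsilon (M00263), the enzyme of the leading strand, stood at 1690.5, 1545 and 1589 CPM against 2243, 2213 and 2821 CPM, with the same library highest. They rose by 0.39 ± 0.08 and 0.59 ± 0.15 (adjusted p = 0.0034 and 0.011). GINS (M00286), a part of the replicative helicase, went the other way, from 2541, 2867 and 3472 CPM to 1904, 1730.4 and 1649 CPM (−0.75 ± 0.19, adjusted p = 0.011). The MCM complex (M00285), the helicase ring that GINS works with, also lay wholly under the control but did not pass, at 7795, 8057 and 9847 CPM against 7748, 6314 and 7195 CPM (−0.27 ± 0.22, adjusted p = 0.41). Polymerase alpha with primase (M00261) lay at 0.24 ± 0.10, the origin recognition complex (M00284) at 0.09 and polymerase delta (M00262) at −0.08. The calls of RPA and polymerase epsilon were lost without higher copper replicate 3, that of RPA also with only the 6 libraries fitted, and that of GINS without higher copper replicate 3 or control replicate 3.

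The DNA repair list held 3 modules and 0 were called by edgeR or DESeq2 (1 at an unadjusted p under 0.05). A member of it (M00728) is a bacterial peptide resistance module matched only through its name. The BRCA1-associated surveillance complex (M00295) lay at −0.05 ± 0.15 and shelterin (M00424), a telomere complex, at −0.42 ± 0.17 (adjusted p = 0.099). DNA-PK (M00297), a kinase of double-strand break repair that matched no list, rose from 1023, 923 and 1271 CPM to 1719, 1488 and 2071 CPM (0.71 ± 0.20, adjusted p = 0.016). The lowest copper library was above the highest control. The call was lost without control replicate 2 or higher copper replicate 3. The FA core complex (M00413) also matched no list. DESeq2 called it (1.09 ± 0.40, adjusted p = 0.033) and edgeR did not.

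Photorespiration was the largest module by level among those called. Photorespiration (M00532), which recycles what Rubisco forms when it takes oxygen in place of CO2, stood at 29293, 32575 and 29863 CPM in the controls and 41415, 41019 and 43899 CPM in higher copper. The 3 libraries of each group lay close together and the groups far apart (0.46 ± 0.10, adjusted p = 0.0034). The serine pathway of formaldehyde assimilation (M00346), which shares a serine and glycine converting enzyme with photorespiration, rose from 16851, 16391 and 16375 CPM to 20157, 20068 and 19460 CPM (0.27 ± 0.06, adjusted p = 0.0074). That call was lost without control replicate 3 and with only the 6 libraries fitted. The light module of CAM (M00169), a set of enzymes that release CO2 from malate and rebuild its acceptor, fell from 2104, 2207 and 2075 CPM to 1719, 1642 and 1675 CPM (−0.34 ± 0.07, adjusted p = 0.0034). The Calvin cycle (M00165), which fixes CO2, lay wholly above the control at 127948, 129350.0 and 123902 CPM against 179151, 202376 and 144184 CPM. With this spread among the copper libraries it did not pass (0.46 ± 0.19, adjusted p = 0.099). The NAD-malic enzyme module of the C4 cycle (M00171) also lay wholly above, at 0.27 ± 0.10 (adjusted p = 0.057). DESeq2 called it (adjusted p = 0.027). By edgeR 1 of the 5 modules of this list rose, 1 fell and 3 did not pass.

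Of the 4 photosystem modules 0 were called by edgeR or DESeq2, and 0 had an unadjusted p under 0.05. Photosystem I (M00163) stood at 5956, 7391 and 6143 CPM in the controls and 6063, 6865 and 6516 CPM in higher copper (−0.00 ± 0.12). The cytochrome b6f complex (M00162), which hands electrons to plastocyanin, lay at 0.07 ± 0.17 and the chloroplast ATP synthase (M00157) at 0.04 ± 0.07. Photosystem II (M00161) varied most, at 665, 703 and 1727 CPM in the controls and 707, 426 and 228 CPM in higher copper. Control replicate 3 and higher copper replicate 3 were its extremes and the other 4 libraries overlapped (−1.19 ± 0.61, adjusted p = 0.19). The libraries were made with an mRNA kit, and genes encoded in the chloroplast or mitochondrion were not analysed here.

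By edgeR and by DESeq2 0 of 9 modules of central carbon metabolism and 0 of 10 respiratory modules were called, with 2 and 1 at an unadjusted p under 0.05. Glycolysis (M00001) lay at −0.08 ± 0.09, the citrate cycle (M00009) at 0.21 ± 0.09 and the pentose phosphate pathway (M00004) at 0.27 ± 0.18. Cytochrome c oxidase (M00154), the copper enzyme of respiration, stood at 1213, 1112 and 931 CPM against 1136, 1319 and 1085 CPM, with no separation of the groups (0.12 ± 0.18, adjusted p = 0.69). The bc1 complex (M00152), which feeds electrons toward it, lay wholly above the control at 121, 140 and 124 CPM against 151, 261 and 183 CPM without passing (0.63 ± 0.36, adjusted p = 0.24). The mitochondrial ATP synthase (M00158) lay wholly below, at 15443, 15481 and 24893 CPM against 14485, 14221 and 12224 CPM (−0.45 ± 0.21, adjusted p = 0.13). The 2 metal transport modules, iron complex (M00240) and peptide and nickel (M00239), lay at −0.20 ± 0.18 and −0.76 ± 0.48 with overlapping libraries (adjusted p = 0.47 and 0.28, and 0 called by DESeq2). No module of the table is named for copper transport.

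Of 10 modules of thiol, sulfur and antioxidant synthesis 2 fell, 0 rose and 8 did not pass. Glutathione synthesis (M00118) stood at 1143, 1105 and 1021 CPM in the controls and 764, 765 and 587 CPM in higher copper. Tocopherol synthesis (M00112), which makes a lipid antioxidant of chloroplast membranes, stood at 2532, 2731 and 3023 CPM against 2140.0, 1841 and 1782 CPM. The groups were apart in both, and they fell by 0.63 ± 0.18 and 0.52 ± 0.14 (adjusted p = 0.016 and 0.012). The modules that supply the sulfur of glutathione did not pass. Cysteine synthesis from serine (M00021) lay wholly above the control, at 4762, 4786 and 4389 CPM against 5519.9, 6492 and 5468 CPM, without passing (0.33 ± 0.15, adjusted p = 0.14). Sulfate reduction (M00176), which makes sulfide for cysteine, lay at 0.24 ± 0.17. The plant pathway of ascorbate (M00114) lay at −0.26 ± 0.13 and beta-carotene synthesis (M00097) at −0.11 ± 0.10. Both calls were lost without control replicate 3 or higher copper replicate 3, and that of glutathione synthesis also without control replicate 2.

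Amino acid and cofactor synthesis changed in few modules. Histidine synthesis (M00026) fell from 5062, 5781 and 5782 CPM to 4402, 4426 and 4272 CPM (−0.34 ± 0.10, adjusted p = 0.025). Lysine synthesis by the DAP aminotransferase pathway (M00527), the plant route, rose from 672, 661 and 568 CPM to 877, 970.3 and 881 CPM (0.52 ± 0.17, adjusted p = 0.042). These were the 2 of 17 amino acid synthesis modules that edgeR called. Of the other 15, proline synthesis (M00015), known in plants under osmotic and metal stress, lay wholly above the control at 390, 337 and 267 CPM against 406, 640.3 and 589 CPM (0.72 ± 0.37, adjusted p = 0.19). Serine synthesis from glycerate 3-phosphate (M00020) lay wholly below at −0.21 ± 0.08 (adjusted p = 0.060 by edgeR), and DESeq2 called it (adjusted p = 0.046). Tyrosine degradation (M00044), outside the lists, fell from 202, 229.9 and 238 CPM to 149, 154 and 148 CPM (−0.57 ± 0.19, adjusted p = 0.042). Its product homogentisate is the head group from which tocopherol is made.

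Of 12 cofactor modules edgeR called 1, pantothenate synthesis (M00119), the start of coenzyme A. It fell from 711, 592 and 806 CPM to 502, 461 and 472 CPM (−0.56 ± 0.17, adjusted p = 0.027). Heme synthesis (M00121), which also gives chlorophyll precursors, lay at 0.19 ± 0.13, eukaryotic ubiquinone synthesis (M00128) at 0.46 ± 0.16 (adjusted p = 0.055) and thiamine synthesis (M00127) at 0.60 ± 0.24 (adjusted p = 0.099). The last 2 lay wholly above the control, and DESeq2 called ubiquinone synthesis (adjusted p = 0.026). Lysine synthesis lost its call without any 1 of the 6 libraries and when both doubted controls were removed. Histidine synthesis lost it without control replicates 2 or 3 or higher copper replicates 2 or 3 and with only the 6 libraries fitted. Tyrosine degradation lost it without control replicates 2 or 3 or any copper library, and pantothenate synthesis without control replicates 1 or 3 or higher copper replicates 2 or 3.

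The 2 modules of nitrogen uptake show how far single libraries could differ within a group. Nitrate assimilation (M00615) stood at 1234, 11123 and 1331 CPM in the controls and 1845, 1210.2 and 7969 CPM in higher copper. Nitrate reduction to ammonia (M00531) stood at 1443, 16424 and 1682 CPM and at 2548, 1794 and 13084 CPM. Control replicate 2 and higher copper replicate 3 were high in both modules, and neither module passed (−0.31 ± 0.76 and −0.17 ± 0.80).

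Lipid metabolism held 21 modules, of which 4 rose, 2 fell and 15 did not pass. Acyl-CoA synthesis for beta-oxidation (M00086), the activation of free fatty acids, rose from 5829.7, 7206 and 6515 CPM to 10453, 9375 and 11087 CPM (0.66 ± 0.14, adjusted p = 0.0034). Beta-oxidation itself (M00087), the breakdown that follows, stood at 1592, 1787 and 1634 CPM against 1627, 1630.0 and 1899 CPM, with the groups overlapping (0.04 ± 0.12). Elongation of fatty acids in the endoplasmic reticulum (M00415) fell from 2098, 2188 and 2462 CPM to 1422, 1319 and 1367 CPM (−0.72 ± 0.18, adjusted p = 0.011). Elongation in mitochondria (M00085) rose by 1.94 ± 0.66 (adjusted p = 0.045) at the low level of 24.3, 29.5 and 11.7 CPM against 36.9, 95.0 and 119 CPM. Both copper replicates 2 and 3 were far above replicate 1. Plastid-type elongation (M00083), the bulk route of fatty acid synthesis, lay at −0.13 ± 0.11.

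Sphingosine degradation (M00100), which ends in a fatty aldehyde and phosphoethanolamine, fell from 1769, 1817 and 2346 CPM to 1292, 938 and 841 CPM (−0.95 ± 0.26, adjusted p = 0.015). Synthesis of the membrane lipid phosphatidylethanolamine from phosphatidylserine (M00093) rose by 0.22 ± 0.07 (adjusted p = 0.022), from 1109.5 to 1189 CPM in the controls to 1304 to 1428 CPM. Breakdown of inositol tetrakisphosphate (M00131), a step of inositol signaling, rose from 103, 92.1 and 99.3 CPM to 173, 133 and 147 CPM (0.62 ± 0.17, adjusted p = 0.016). Triacylglycerol synthesis (M00089), the making of storage oil, and the plastid isoprenoid pathway (M00096) lay wholly below the control without passing (−0.30 ± 0.14 and −0.26 ± 0.11). Endoplasmic elongation lost its call without higher copper replicate 3, and phosphatidylethanolamine synthesis without replicate 3 of either group and with only the 6 libraries fitted. Sphingosine degradation lost it without replicate 3 of either group or higher copper replicate 2. Inositol tetrakisphosphate breakdown lost it without control replicates 2 or 3, without higher copper replicates 1 or 3 and with only the 6 libraries fitted. Mitochondrial elongation lost it without any 1 library other than higher copper replicate 1, and when both doubted controls were removed. With the replicate block its adjusted p was 0.052.

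Splicing modules moved in both directions. The Prp19 complex (M00353), which activates the spliceosome, rose from 19021, 15575 and 16282 CPM to 24035, 23024 and 24312 CPM (0.49 ± 0.11, adjusted p = 0.0056). The U1-snRNP (M00351), which reads the 5' splice site, fell from 433, 506 and 549 CPM to 321, 263 and 266 CPM (−0.81 ± 0.19, adjusted p = 0.0063). The tri-snRNP (M00354), which joins before catalysis, fell from 6293, 5796 and 6221 CPM to 5187, 5072 and 4473 CPM (−0.31 ± 0.08, adjusted p = 0.011). The other 4 of 7 did not pass, among them the U2-snRNP (M00352) and the exon junction complex (M00430), which lay wholly below the control at −0.31 ± 0.13 and −0.30 ± 0.16 (adjusted p = 0.099 and 0.20). The U1 call was lost without higher copper replicate 3. The tri-snRNP call was lost without replicate 3 of either group and with only the 6 libraries fitted.

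Of 5 modules of RNA processing and decay 2 fell and 3 did not pass. The H/ACA ribonucleoprotein (M00425), which makes pseudouridine in ribosomal RNA, fell from 5450.0, 4915 and 6474 CPM to 4045, 3158 and 2479.9 CPM (−0.80 ± 0.23, adjusted p = 0.018). TRAMP (M00393), which tags nuclear RNA for decay, fell by 0.48 ± 0.13 (adjusted p = 0.016), from 1510.0, 1121 and 1444 CPM to 1196, 887 and 833 CPM. Here the first copper library was above the second control. The exosome (M00391), which degrades what TRAMP tags, lay at 0.20 ± 0.15 with overlapping groups. All 5 transcription modules lay below the control and 0 were called by edgeR or DESeq2 (2 at an unadjusted p under 0.05). RNA polymerase I (M00182), which makes ribosomal RNA, lay at −0.45 ± 0.18 and polymerase III (M00181) at −0.36 ± 0.17 (adjusted p = 0.096 and 0.15), and polymerase II (M00180) at −0.01 ± 0.18. Both calls of RNA processing were lost without control replicate 3 or higher copper replicates 2 or 3, and that of TRAMP also without control replicate 1 and with only the 6 libraries fitted.

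Of 10 modules of ribosomes, proteasomes and proteases 1 rose, 1 fell and 8 did not pass. The prokaryotic aminoacyl-tRNA module (M00360), which holds organelle-type enzymes that charge tRNA, rose from 186, 152 and 103 CPM to 218, 332 and 365 CPM (1.05 ± 0.29, adjusted p = 0.016). Its eukaryotic counterpart (M00359) lay wholly below the control at −0.18 ± 0.11 (adjusted p = 0.28). The immunoproteasome (M00337), an animal form that shares subunits with the common proteasome, fell by 0.46 ± 0.16 (adjusted p = 0.045), from 8263, 9170 and 10745 CPM to 7399, 6687 and 6342 CPM. The 20S core (M00340) lay at −0.23 ± 0.13 and the 19S regulator (M00341) at 0.16 ± 0.07 (adjusted p = 0.21 and 0.14), each without overlap. The cytosolic ribosome (M00177) stood at 74354, 56148 and 65254 CPM against 72201, 69557 and 44999 CPM, with wide spread in both groups (−0.07 ± 0.15). Both calls were lost without control replicate 3 or higher copper replicates 2 or 3, and that of the immunoproteasome also without control replicate 2.

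Of 14 modules of secretion and glycosylation 2 rose, 1 fell and 11 did not pass. The translocon-associated protein complex (M00402), which helps proteins into the endoplasmic reticulum, rose from 144, 121 and 106 CPM to 175, 270.2 and 240.4 CPM (0.89 ± 0.29, adjusted p = 0.042). Oligosaccharyltransferase (M00072), which adds the N-glycan, rose by 0.24 ± 0.08 (adjusted p = 0.035), from 855, 945 and 858 CPM to 974, 1003 and 1169 CPM. ESCRT-II (M00410), a membrane-sorting complex of the endosome, fell from 199.7, 182 and 255 CPM to 162, 151 and 133 CPM (−0.52 ± 0.15, adjusted p = 0.022). The Sec61 channel (M00401) and the HRD1 complex of protein quality control (M00403) lay at 0.08 ± 0.11 and 0.06 ± 0.10. Of 4 ubiquitin ligase modules 0 were called by edgeR or DESeq2 (1 at an unadjusted p under 0.05), and the nearest was Cul3-SPOP (M00384), wholly below the control at −0.30 ± 0.11 (adjusted p = 0.065). Oligosaccharyltransferase lost its call without control replicates 1 or 3 or higher copper replicate 3 and with only the 6 libraries fitted. The translocon-associated complex lost it without replicates 2 or 3 of either group and when both doubted controls were removed. ESCRT-II lost it without control replicate 3 or higher copper replicates 2 or 3 and with only the 6 libraries fitted.

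Several called modules carry names of animal or bacterial systems, because KEGG assigns gene families by homology. Wnt signaling (M00677) fell from 2646, 2414 and 3068 CPM to 1693, 1458 and 1494 CPM (−0.81 ± 0.17, adjusted p = 0.0034). Cyclic GMP signaling (M00694) rose from 324, 399.7 and 376 CPM to 599, 541 and 874 CPM (0.87 ± 0.20, adjusted p = 0.0063). In both every copper library was apart from every control. The Qnr module of fluoroquinolone resistance (M00729), in bacteria a pentapeptide repeat protein, rose from 486, 459.9 and 312 CPM to 803, 959 and 922 CPM (1.09 ± 0.30, adjusted p = 0.016). Hedgehog signaling (M00678) rose by 0.61 ± 0.20 (adjusted p = 0.042), although its highest control of 274 CPM was close to its lowest copper library of 280.5 CPM. Galactose degradation by the Leloir pathway (M00632) rose by 0.66 ± 0.19 (adjusted p = 0.020), from 58.8 to 69.4 CPM in the controls to 81.1 to 127 CPM.

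The apoptotic module (M00685) and the bacterial LuxQN quorum sensing module (M00513) fell at low levels. They stood at 11.3, 15.0 and 27.3 CPM against 9.88, 4.30 and 4.45 CPM, and at 13.6, 23.0 and 26.5 CPM against 10.8, 6.49 and 5.96 CPM. The lowest control and the first copper library were close in both (−1.52 ± 0.50 and −1.44 ± 0.49, adjusted p = 0.040 and 0.044). Both calls were lost without replicates 2 or 3 of either group and with only the 6 libraries fitted, as was that of Hedgehog signaling, which was lost too when both doubted controls were removed. The cGMP call was lost without higher copper replicate 3, the Qnr call without replicate 3 of either group, and the galactose call without replicate 3 of either group and with only the 6 libraries fitted. The other 20 of 21 modules of membrane transport and bacterial systems did not pass by edgeR. DESeq2 called 1 of them, the vacuolar proton pump (M00160), at −0.41 ± 0.15 (adjusted p = 0.042).

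Falls were more frequent on chromosomes 2 and 19 than on the others, although 377 of the 502 falls lay on the others. Chromosomes 2 and 19 are known in O. tauri as the outlier chromosomes, with a lower GC content than the rest of the genome. Chromosome 2 carries the mating type locus, and chromosome 19 has been linked to resistance to viruses. Chromosome numbers here are those in the locus tags. On chromosome 2, 109 of 512 tested genes fell (21.3%) and 16 rose. On chromosome 19, 16 of 55 fell (29.1%) and 0 rose, with a median log2 difference of −0.60 over all its tested genes. Across the genome 6.98% fell. Chromosomes 2 and 19 held 125 of the 502 falls (24.9%) and 7.89% of the tested genes, and on the other chromosomes 5.69% of genes fell. Genes of both chromosomes were also expressed at a higher level over the 6 libraries, with medians of 79.5 and 89.7 CPM where the middle of all tested genes lay at 35.1 CPM, and falls were more frequent at higher levels. The part of level in this pattern was not tested. The median was highest on chromosome 20, at 0.33 over 85 genes, of which 7 rose (8.24%) and 4 fell. Its share of rises was close to those of chromosomes 16 and 18 (8.33% and 8.72%), where 4.87% of all tested genes rose.

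**Figure D3:**
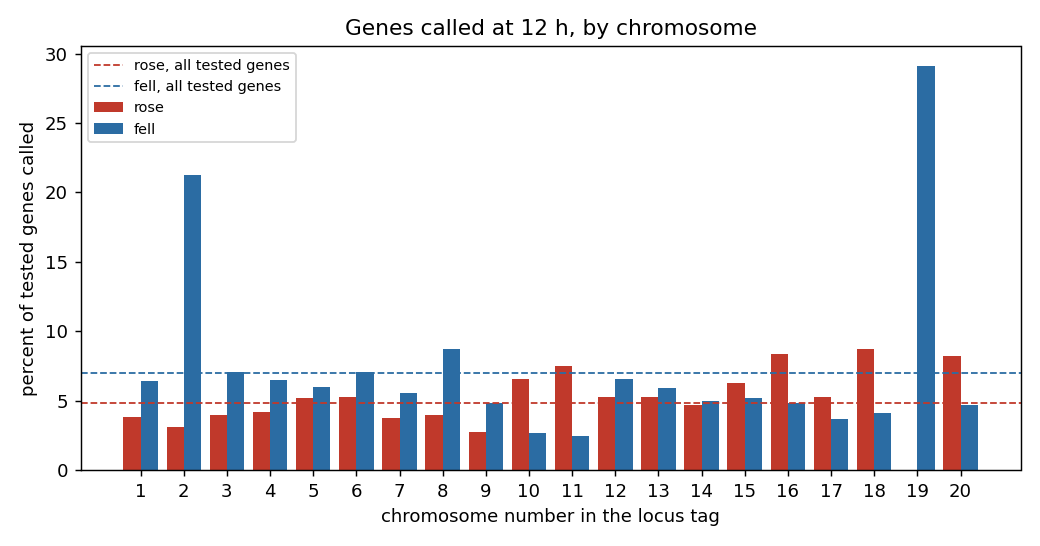
Bars give the percent of tested genes that rose (red) or fell (blue) on each chromosome at 12 h, by the chromosome number in the locus tag (x axis), and dashed lines give the same over all tested genes. Chromosome 2 (21.3%) and chromosome 19 (29.1%) stand far above the 6.98% of genes that fell overall.

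The share of a library's gene counts on these chromosomes was lower in higher copper. Chromosome 2 took 11.1 to 13.0% of counts in the controls of 12 h. It took 9.93 to 13.0% in lower copper and 8.77 to 9.92% in higher copper. Higher copper lay under both, but its highest library was barely under the lowest of lower copper. Chromosome 19 took 0.963 to 1.24%, 0.819 to 1.14% and 0.612 to 0.745%. Over all 30 libraries the chromosome 2 share ran from 8.77 to 13.0%. The number of falls on them depended on single libraries more than the whole count did. Chromosome 2 held 17 of 138 falls without higher copper replicate 3 and 21 of 157 without control replicate 3. It held 23 of 179 without higher copper replicate 2 and 72 of 381 without control replicate 2. On chromosome 19 the falls numbered 3, 4 and 5 without the first 3 of these libraries. In those 3 settings both chromosomes together held a smaller share of all falls than the 24.9% with every library kept.

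Along chromosome 2 the falls lay in its first part by locus tag order. In blocks of 32 tested genes, the first 9 blocks held 288 genes, of which 93 fell (32.3%) and 1 rose, with a median log2 difference of −0.58. In the last 7 blocks, 16 of 224 genes fell (7.14%) and 15 rose, with a median of 0.16. At 4 h the medians of these parts were −0.28 and 0.04. In lower copper at 12 h, which is set against the same controls, they were −0.02 and 0.09. The border between the parts was chosen after the values were seen. Of the 502 falls 135 (26.9%) lay next to another fall in locus tag order, where 12.3% of all tested genes had a falling neighbour. Of the 350 rises 49 (14%) lay next to another rise, where 8.97% of all tested genes had a rising neighbour. There were 13 runs of 3 or more falling neighbours, 10 of them on chromosome 2 and the longest of 10 genes, and 1 such run of rising genes, on chromosome 20.

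**Figure D4:**
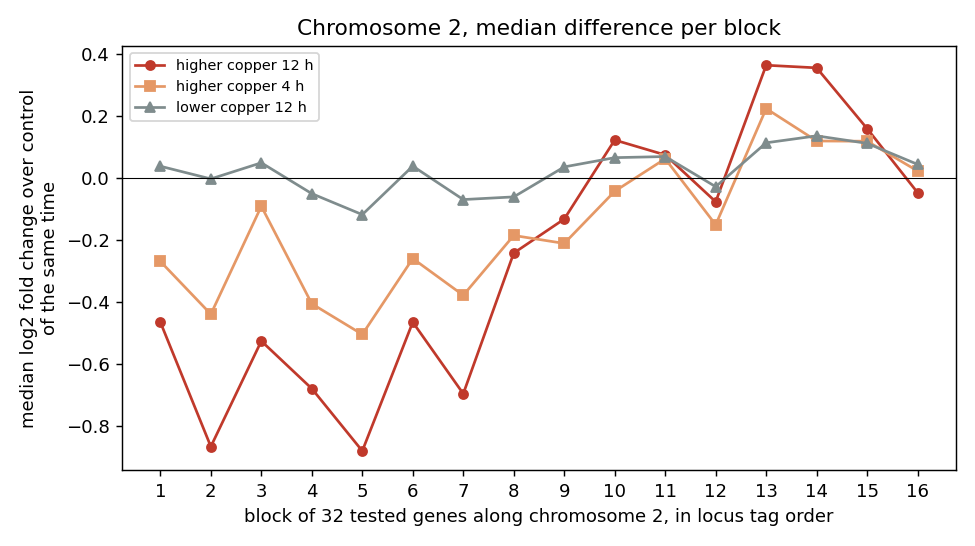
Points give the median log2 fold change over the control of the same time for each block of 32 tested genes along chromosome 2 in locus tag order (x axis), for higher copper at 12 h and 4 h and lower copper at 12 h. Higher copper at 12 h lies below 0 in the first 9 blocks, with a median of −0.58 over their 288 genes, and around or above 0 in the last 7.

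The changes of 12 h were set beside those of 4 h and 1 h, which have other control libraries. At 4 h 661 genes were called (9.19%), of which 287 rose (3.99%) and 374 fell (5.2%). Of these 128 rose and 174 fell at 12 h too. That is 36.6% of the rises and 34.7% of the falls of 12 h, and 44.6% and 46.5% of those of 4 h. No gene was called in opposite directions. At 1 h 110 were called (1.53%), of which 30 rose (0.417%) and 80 fell (1.11%), and 18 and 34 of these were also called in the same direction at 12 h. The genes that rose at 12 h had a median log2 difference of 0.91 at 12 h, 0.55 at 4 h and 0.29 at 1 h, and those that fell −0.77, −0.52 and −0.30. They were chosen at 12 h, so the first value of each is a description. The shared falls numbered 65 without higher copper replicate 3 of 12 h, 81 without control replicate 3 of 12 h, 104 without higher copper replicate 2 of 12 h and 107 when both doubted controls were removed. The shared rises numbered 78 without higher copper replicate 3 of 12 h.

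Of modules 20 were called at 4 h (8.47%), 8 that rose (3.39%) and 12 that fell (5.08%), and 4 and 7 of these were called at 12 h too. At 1 h 7 modules rose (2.97%) and 5 fell (2.12%). Rises at both times were photorespiration, the serine pathway, beta-oxidation acyl-CoA synthesis and cGMP signaling. Falls at both times were the CAM module, tocopherol, glutathione and pantothenate synthesis, GINS, the tri-snRNP and Wnt signaling. Photorespiration had risen more at 4 h, by 0.68 ± 0.10, than the 0.46 ± 0.10 of 12 h, but the difference did not pass (adjusted p = 0.88). Called at 4 h and not at 12 h were 9 modules. Isoleucine synthesis (M00570) had risen by 0.70 at 4 h (adjusted p = 0.00059) and lay at 0.25 at 12 h (adjusted p = 0.17), and tyrosine synthesis (M00025) had risen by 0.52 (adjusted p = 0.0014) and lay at 0.19 (adjusted p = 0.20). Acylglycerol degradation (M00098), which frees fatty acids from storage and membrane glycerides, had fallen by 1.25 (adjusted p = 0.0064) and lay at −0.31 (adjusted p = 0.49).

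Whether an effect at 12 h differed from that at 4 h was tested directly. By edgeR 0 genes and 0 modules passed (unadjusted p under 0.05 in 557 genes and in 15 modules), and DESeq2 called 14 genes and 1 module. Of the genes named above, OT_ostta17g01050 gave −0.93 ± 0.24 (adjusted p = 0.30). It passed without control replicate 3 of 4 h, whose label is in doubt (adjusted p = 0.028), and with both doubted controls removed (−1.21, adjusted p = 0.0062). The nearest module was G1/S transition. At 4 h it stood at 797 ± 45.6 CPM in the control and 929 ± 120 CPM in higher copper (SD, n = 3), a log2 difference of 0.22 ± 0.12 (adjusted p = 0.24). The 12 h effect was larger by 0.69 ± 0.16 (adjusted p = 0.075). This module passed with DESeq2, with DESeq2 size factors, with the replicate block and without control replicate 2 of 12 h, higher copper replicate 1 of 12 h or higher copper replicate 3 of 4 h, at adjusted p from 0.0060 to 0.049. RPA lay at 0.05 ± 0.08 at 4 h and the checkpoint module at 0.41 ± 0.19, and their differences between the times did not pass (both adjusted p = 0.60).

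**Figure D5:**
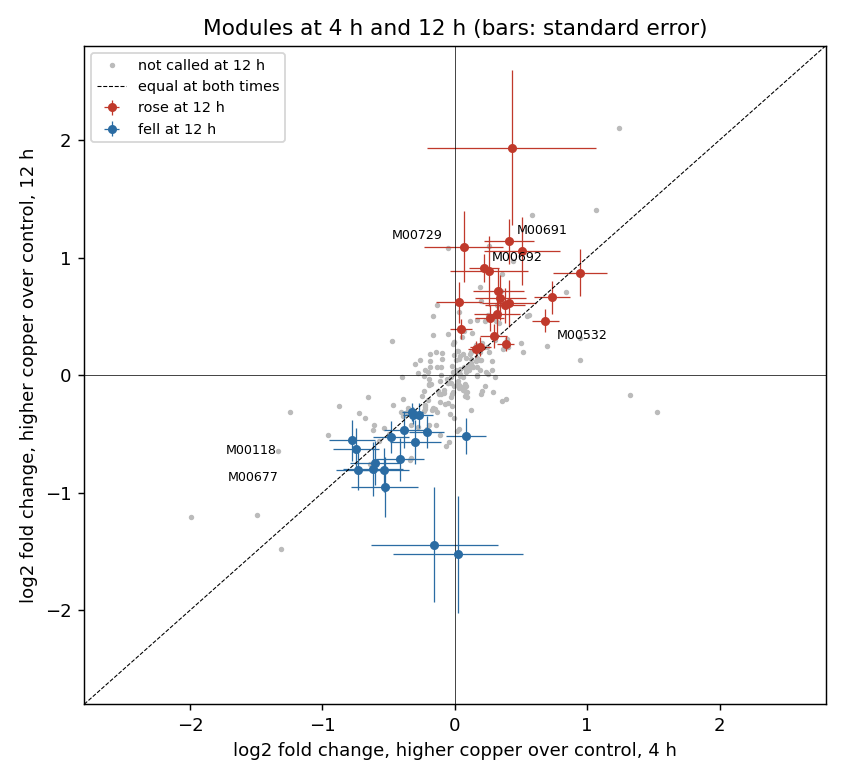
Each point is 1 of 236 modules, with the log2 fold change of higher copper over control at 4 h on the x axis and at 12 h on the y axis, and bars of 1 standard error for the 39 called at 12 h. G1/S transition (M00692), the checkpoints (M00691) and Qnr (M00729) lie above the dashed line of equal change, photorespiration (M00532) below it, and glutathione synthesis (M00118) and Wnt signaling (M00677) near it, while 0 modules passed the test of the difference between the times by edgeR.

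Lower copper at 12 h was set against the same controls. By edgeR 0 genes were called there (339 at an unadjusted p under 0.05), against 10 by DESeq2. Of modules edgeR called 1 (0.424%) and DESeq2 4. The edgeR call was polymerase alpha with primase, which rose by 0.47 and lay at 0.24 ± 0.10 in higher copper (adjusted p = 0.10). Tested directly, 121 genes differed between higher and lower copper at 12 h (1.68%), of which 56 were higher (0.779%) and 65 lower (0.904%) in higher copper. Of modules 2 differed (0.847%). G1/S transition was higher by 0.77 ± 0.12 (adjusted p = 0.00019) and Wnt signaling lower by 0.72 ± 0.17 (adjusted p = 0.038). Lower copper held G1/S at 860.4 ± 76.1 CPM and Wnt signaling at 2551 ± 453 CPM (SD, n = 3), against control means of 781 and 2709 CPM. Both are calls of the fit over all groups. With only those 6 libraries fitted 0 genes and 0 modules were called by edgeR (520 and 17 at an unadjusted p under 0.05), and over all groups DESeq2 called 280 and 14. Wnt signaling lost its call without higher copper replicates 2 or 3 or lower copper replicates 1 or 2, and when both doubted controls were removed. The gene count was 61 and 72 without lower copper replicates 2 and 1, 67 and 68 without higher copper replicates 2 and 3, and 661 without lower copper replicate 3, without which 15 modules were called.

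The authors' deposited table of this comparison lists 7566 genes, of which 874 have an adjusted p under 0.05, with 421 higher and 453 lower in higher copper. It shares 605 genes with the 852 of the edgeR fit, which is 69.2% of the authors' calls and 71.0% of edgeR's, all 605 in the same direction. For the 4 genes named above the authors' deposited table gives log2 values of 1.88 for OT_ostta17g00300, 1.78 for OT_ostta04g02890, −1.80 for OT_ostta17g01050 and −1.47 for OT_ostta04g01940. The 2 rises, which rest on few reads, are about 2 log2 units smaller there than in the edgeR fit.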

How the data were processed

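RNA of liquid cultures was sequenced from libraries of a stranded mRNA kit, per the labels' protocols. The authors deposited read counts per gene and counts per KEGG module, not normalized, and a table of log2 fold changes with p-values per gene, per the file headers. The submitters' processing notes name DESeq2. The sources used here do not give the aligner, the counter, its strand setting or the genome build, so overlapping and antisense genes cannot be told apart. Among the gene counts 1 unnamed line, which repeats the column number, was left out (0.00038% of counts).

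Counts were fitted with edgeR 4.0.16 in R 4.3.3: 10 group means over 30 libraries, 20 residual degrees of freedom, TMM, the quasi-likelihood test and Benjamini-Hochberg adjustment. filterByExpr left 7190 of 7627 genes, and modules were not filtered. The fit was tested on simulated counts. CPM are TMM-scaled, errors of log2 values are standard errors, and log2 CPM carry a prior count of 2. Counting intervals cover counting error only. DESeq2 1.42.0 was an alternative.

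Genes could be named with an adjusted p under 0.05, groups apart in CPM and a mean level of at least 1 on the log2 scale. Of these the 2 with the highest and the 2 with the lowest change are given, because 7626 locus tags matched RefSeq with only 2 other symbols and no description. Modules were named where called, with others of their list. Members and lists were chosen with earlier results of these data known.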

Additional observations from a re-analysis of the deposited data

How the results depend on the processing

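Of the 39 modules called at 12 h, 0 reversed in any alternative, and all 39 were called with DESeq2, with DESeq2 size factors and with the other filter. With only the 6 libraries fitted 25 were still called, and with both doubted controls left out 35. Leaving out 1 library gave 297 to 1087 genes and 8 to 41 modules at 12 h, 17 to 123 falls on chromosome 2, 3 to 19 on chromosome 19, and 78 to 133 rises and 65 to 166 falls shared with 4 h. Shared falls numbered 107 with both doubted controls left out. The counts on chromosomes and shared counts were added after the data were seen. For higher against lower copper, DESeq2 called 280 genes and 14 modules, only the groups compared 0 and 0, and both doubted controls left out 1 module. Without single libraries it was 61 to 661 genes and 1 to 15 modules. For 12 h against 4 h, DESeq2 called 14 genes and 1 module, DESeq2 size factors 1 module and both doubted controls left out 3 genes. Without single libraries it was 0 to 4 genes and 0 to 1 module. The causes were not tested. At 12 h DESeq2 called 1017 genes, DESeq2 size factors 823, no filter 788 and both doubted controls left out 770. A lone sample was never left, since each group kept 2 libraries.

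Same-numbered libraries of the 2 groups did not go together. They correlated in their deviations at −0.09, −0.09 and −0.22, and no sample correlated best with its own number. Control replicates 1, 2 and 3 correlated best with higher copper replicates 2, 3 and 1, at 0.42, 0.47 and 0.48. Deviations from a mean of 3 libraries sum to 0 and only these 2 groups were compared, so these values can neither show nor exclude pairing. With the replicate block 1083 genes and 46 modules were called at 12 h, against 852 and 39 without it. For higher against lower copper it called 206 genes and 12 modules, against 121 and 2. For 12 h against 4 h it called 0 genes and 1 module. At the depth of the shallowest library (control replicate 2), genes under about 1 CPM rest on few reads.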
